A study of Mus musculus with 13 samples.

Results

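The 10 genes described here carry the insulin signal into glucose uptake and its transcriptional output: Insr, Irs1, Irs2, Pik3r1, Akt2, Tbc1d4, Slc2a4, Slc2a1, Foxo1 and Pck1. They were chosen by gene symbol for their role in the pathway, and each symbol had 1 row among the 54532 genes of the deposited table. All 10 passed the filter on low values, at which 14421 genes were kept (3 or more libraries at 1 FPKM or higher). FPKM is a fragment count divided by gene length and by a total per library, so levels of different genes are given per length. Within a library, the Spearman correlation of gene length with level still ran from -0.31 in SF_ConD 1 to 0.139 in SF_HPD 1.

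RNA was sequenced from the inguinal fat pad, a white adipose depot under the skin of the groin, of 13 mice fasted for 12 h. The control group, SC_ConD, held 3 mice with normal sleep on normal chow. SF_ConD held 5 mice with fragmented sleep on the same chow, and SF_HPD held 5 mice with the same sleep disturbance that ate a high-protein diet, with 50% of its calories from protein, 12% from fat and 38% from carbohydrate. Libraries came from individual mice and are named by group and replicate number, such as SF_HPD 2. The sources used here give no age, sex, strain or length of treatment. As all the mice were fasted, the values describe these genes in fasted fat, without an insulin-stimulated state to set beside them.

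Insulin binds a receptor tyrosine kinase that phosphorylates docking proteins, and these recruit phosphoinositide 3-kinase, whose lipid product activates the kinase AKT. In adipocytes AKT2 inhibits the GTPase-activating protein TBC1D4, which lets vesicles with the transporter GLUT4 reach the cell surface. AKT also keeps the transcription factor FOXO1 out of the nucleus, and in white fat the enzyme encoded by Pck1 supplies the glycerol backbone on which fatty acids are re-esterified. Much of this pathway is regulated by phosphorylation and by vesicle movement, which RNA levels do not measure.

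The libraries held 14815592 to 18303302 reads on genes, recovered from the FPKM values. In 4 libraries, at least 1 in each group, levels leaned toward long genes relative to the other libraries. This length trend was the Spearman correlation across genes between gene length and a library's log2 level relative to the gene's mean. It was 0.484 to 0.563 in SC_ConD 1, SF_ConD 3, SF_HPD 1 and SF_HPD 4. In the other 9 it ran from -0.436 in SF_ConD 1 to 0.0319 in SF_ConD 4, so some of these leaned toward short genes. The label of adipose tissue was checked with 12 adipocyte markers. None was at 0 in SF_HPD 2, but there they summed to 1473 FPKM, against 8080 to 58798 FPKM elsewhere. Skeletal muscle markers summed to 22109 FPKM in SF_HPD 4 and 3597 FPKM in SC_ConD 3, and to at most 270.4 FPKM in the others. Liver markers summed to 24379 and 13623 FPKM in SC_ConD 2 and SC_ConD 3 and to 272 to 6112 FPKM in the others. Markers of B cells and lymph nodes summed to 378 to 1376 FPKM in SF_ConD 1, 4 and 5 and SF_HPD 4 and 5, and to at most 35.7 FPKM in the others. In such bulk tissue, fewer cells of a type and less RNA per cell cannot be told apart.

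None of the 10 genes passed the test in any of the 3 group comparisons, and for none did the values of 2 groups separate. Groups overlapped in all 30 gene-by-comparison pairs. Levels were tested as log2(FPKM + 1) with limma over all genes kept and Benjamini-Hochberg adjustment at a threshold of 0.05. In SF_ConD against SC_ConD, 0 of 10 genes were called, against a background of 0% of all genes. In SF_HPD against SF_ConD and in SF_HPD against SC_ConD, 0 of 10 were called as well, and the background was again 0%. At an unadjusted p under 0.05, limma held 0 of the 10 in each comparison, beside 5.74%, 1.89% and 3.68% of all genes. Limma-voom on recovered reads differs from this test in its weights, its library scaling and the trend option. It also called 0 genes in each comparison and held 614, 261 and 459 of all genes at an unadjusted p under 0.05. Non-overlapping groups were found in 3.6%, 0.458% and 1.64% of all genes. Without SC_ConD 1, limma called 194 genes in SF_ConD against SC_ConD and 196 in SF_HPD against SC_ConD, and without the 4 libraries of high length trend 162 and 172. Without SF_HPD 5 it called 1 gene in each comparison of SF_HPD. None of the 10 genes was among them. Of these calls, 189 of 194, 193 of 196, 157 of 162 and 169 of 172 were lower than in SC_ConD. Leaving out SC_ConD 1 or those 4 libraries keeps SC_ConD 2 and 3 as the only controls, the libraries with the highest liver markers, and the part of liver RNA in these counts was not tested.

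In size, 6 of the 30 fold changes of the 10 genes exceeded their own standard error. Of the 10 genes, 3 had a positive and 7 a negative fold change in SF_ConD against SC_ConD, with a median of -0.07 on the log2 scale. In each of the other 2 comparisons 5 were positive and 5 negative, with medians of 0.07 in SF_HPD against SF_ConD and 0.00 in SF_HPD against SC_ConD. The medians of all genes were -0.03, 0.01 and 0.02. The standard errors of the 10 genes ran from 0.30 to 1.68, and the smallest adjusted p of any of them was 1.0 after rounding (limma, Benjamini-Hochberg). A p-value at this level does not show that groups were alike. The 95% confidence interval of Akt2 in SF_HPD against SF_ConD still ran from -0.96 to 0.85, and that of Slc2a4 from -1.31 to 1.80.

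**Figure D1:**
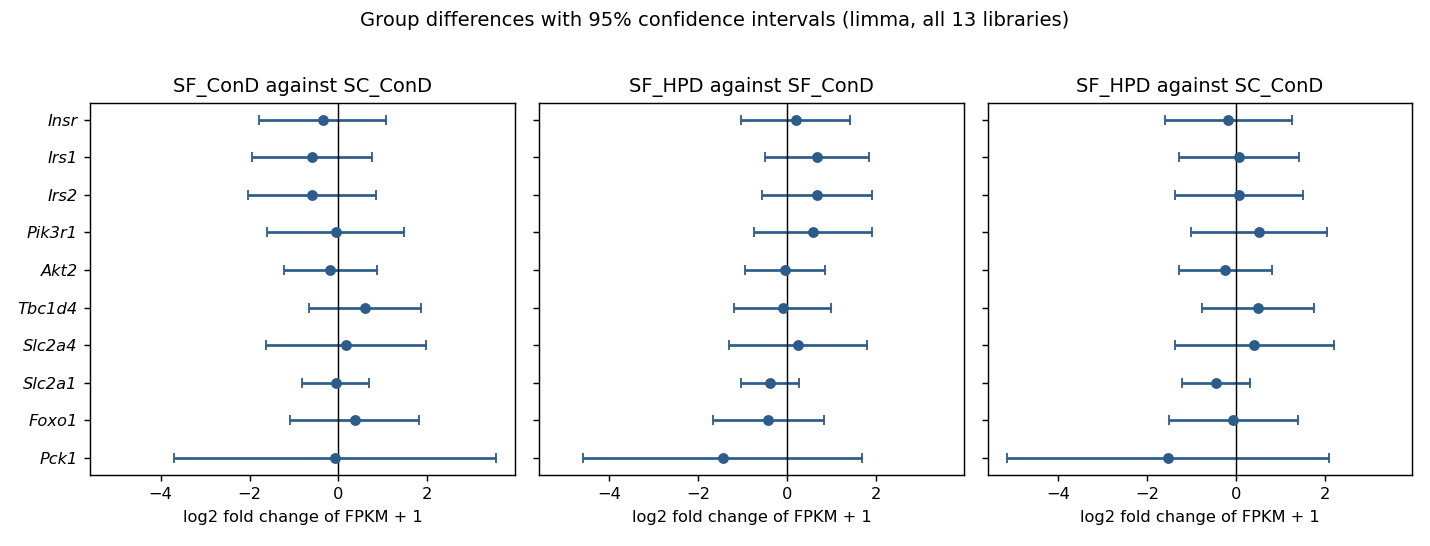
Fold changes of the 10 genes (vertical axis) on the log2(FPKM + 1) scale (horizontal axis) in each of the 3 comparisons; points are limma estimates over 13 libraries and bars are 95% confidence intervals. Every interval includes 0; Slc2a1 has the narrowest and Pck1 the widest.

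By level, Pck1 stood first, with a median of 437 FPKM over the 13 libraries, followed by Akt2 at 53.8 FPKM and Slc2a4 at 29.9 FPKM. The median was 6.54 FPKM for Pik3r1, 6.22 FPKM for Slc2a1 and 5.97 FPKM for Tbc1d4. It was 4.51 FPKM for Insr, 4.13 FPKM for Irs2, 3.18 FPKM for Foxo1 and 0.872 FPKM for Irs1. The ranges of all neighbours in this order overlapped, those of Pck1 and Akt2 only through SF_HPD 2. Reads behind a value ran from 0 for Irs1 in SF_HPD 2 to 158355 for Pck1 in SF_HPD 1.

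**Figure D2:**
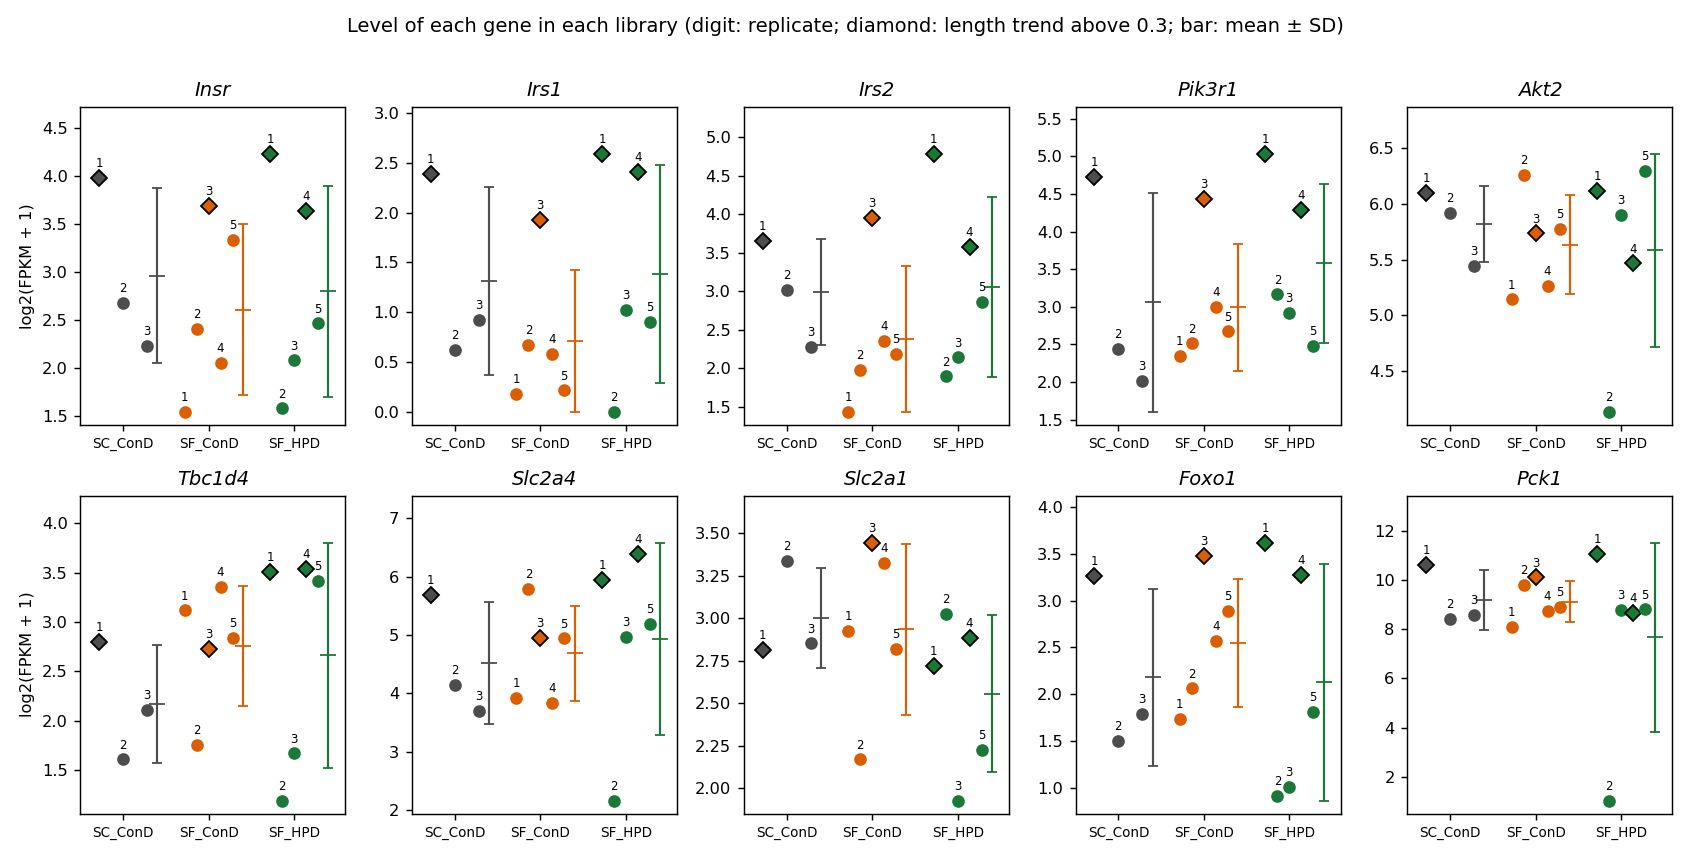
Level of each gene as log2(FPKM + 1) (vertical axis) in each library by group (horizontal axis); digits are replicate numbers, diamonds mark the 4 libraries with a length trend above 0.3, and bars give the group mean and SD. The diamonds stand at the top for Insr, Irs1, Irs2, Pik3r1 and Foxo1, and SF_HPD 2 stands far below all others for Pck1.

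Insr (ENSMUSG00000005534, chromosome 8, 3122061 to 3279617, minus strand, GRCm38) encodes the insulin receptor. It was at 14.7, 5.40 and 3.67 FPKM in SC_ConD 1 to 3. In SF_ConD 1 to 5 it was at 1.91, 4.28, 11.9, 3.15 and 9.09 FPKM, and in SF_HPD 1 to 5 at 17.7, 1.98, 3.22, 11.4 and 4.51 FPKM. The 4 highest values were those of the libraries with a length trend above 0.3, and the groups overlapped. Group means were 7.94 ± 5.96 FPKM (SD, n = 3), 6.06 ± 4.23 FPKM (n = 5) and 7.77 ± 6.66 FPKM (n = 5). The log2 fold change was -0.36 (SE 0.66) for SF_ConD against SC_ConD, 0.19 (SE 0.57) for SF_HPD against SF_ConD and -0.17 (SE 0.66) for SF_HPD against SC_ConD. Insr was above the related receptor gene Igf1r in 12 of 13 libraries, the exception being SF_HPD 2.

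Irs1 and Irs2 encode the docking proteins that link the receptor to phosphoinositide 3-kinase. Irs1 (ENSMUSG00000055980, chromosome 1, 82233101 to 82291416, minus strand, GRCm38) and Irs2 (ENSMUSG00000038894, chromosome 8, 10984681 to 11008458, minus strand, GRCm38) were highest in the same 4 libraries, so the 250 bases before the start of each are shown. They were taken from RefSeq on GRCm38.p6, at chr1:82291440-82291689 and chr8:11008930-11009179, both minus strand, and are printed 5′ to 3′. Capitals mark matches on either strand to CACGTG, an E-box bound by basic helix-loop-helix factors, and to GGGCGG, a GC box bound by SP1.
Irs1: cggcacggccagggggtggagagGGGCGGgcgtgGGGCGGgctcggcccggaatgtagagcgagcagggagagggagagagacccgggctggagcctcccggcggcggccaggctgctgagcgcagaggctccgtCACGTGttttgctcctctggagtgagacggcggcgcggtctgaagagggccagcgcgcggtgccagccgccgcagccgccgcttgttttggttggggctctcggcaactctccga
Irs2: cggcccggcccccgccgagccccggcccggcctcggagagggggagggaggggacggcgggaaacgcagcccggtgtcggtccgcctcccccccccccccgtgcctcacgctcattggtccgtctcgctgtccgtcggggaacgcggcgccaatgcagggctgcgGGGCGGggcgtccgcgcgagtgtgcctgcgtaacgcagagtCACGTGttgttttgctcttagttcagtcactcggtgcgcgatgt
Both windows held 1 E-box, which begins at position -115 from the start site in Irs1 and at -44 in Irs2. The windows of Pik3r1 and Foxo1, which were highest in the same 4 libraries, held no E-box. CACGTG was in 6.02% of 32851 promoter windows of the same length. GC boxes numbered 2 in Irs1 and 1 in Irs2, and GGGCGG was in 32.7% of all windows. These matches describe the letters and are not shown to be sites.

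Irs1 was at 4.22, 0.542 and 0.895 FPKM in SC_ConD 1 to 3. In SF_ConD 1 to 5 it was at 0.130, 0.593, 2.79, 0.492 and 0.162 FPKM, and in SF_HPD 1 to 5 at 5.02, 0, 1.03, 4.29 and 0.872 FPKM. The 4 values above 2 FPKM again belonged to the libraries with a high length trend, and all groups overlapped. The 0 in SF_HPD 2 rests on 0 reads, which allows up to 0.0379 FPKM at a limit of 3 reads, for counting error only. Group means were 1.89 ± 2.03 FPKM in SC_ConD (SD, n = 3), 0.833 ± 1.11 FPKM in SF_ConD (n = 5) and 2.24 ± 2.25 FPKM in SF_HPD (n = 5). The log2 fold change was -0.60 (SE 0.62) for SF_ConD against SC_ConD and 0.67 (SE 0.54) for SF_HPD against SF_ConD, and with 1 library left out it was -0.94 to -0.06 and 0.37 to 1.02. Because of the added 1, these values understate changes of a gene as low as Irs1.

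Irs2 was at 11.6, 7.12 and 3.87 FPKM in SC_ConD 1 to 3. In SF_ConD 1 to 5 it was at 1.70, 2.95, 14.5, 4.13 and 3.55 FPKM, and in SF_HPD 1 to 5 at 26.6, 2.72, 3.42, 10.9 and 6.29 FPKM. The same 4 libraries were highest, with SF_HPD 1 well above the rest. The means were 7.54 ± 3.90 FPKM (SD, n = 3), 5.36 ± 5.18 FPKM (n = 5) and 9.98 ± 9.82 FPKM (n = 5) in SC_ConD, SF_ConD and SF_HPD. Irs2 had log2 fold changes of -0.60 (SE 0.67) and 0.67 (SE 0.58) for SF_ConD against SC_ConD and SF_HPD against SF_ConD. Leaving out 1 library at a time gave -1.0 to -0.27 and 0.24 to 1.06. These 2 comparisons share SF_ConD, so opposite signs in them are not separate observations. Irs2 was above Irs1 in all 13 libraries, by 2.54-fold to 21.9-fold in the 12 libraries where Irs1 had reads.

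Pik3r1 (ENSMUSG00000041417, chromosome 13, 101680563 to 101768217, minus strand, GRCm38) encodes the p85 alpha regulatory subunit of phosphoinositide 3-kinase. It was at 25.4, 4.42 and 3.05 FPKM in SC_ConD 1 to 3. In SF_ConD 1 to 5 it was at 4.09, 4.71, 20.6, 7.0 and 5.38 FPKM, and in SF_HPD 1 to 5 at 31.8, 7.97, 6.54, 18.5 and 4.58 FPKM. The values fell into a set of 4 from 18.5 to 31.8 FPKM, all from libraries with a high length trend, and a set of 9 from 3.05 to 7.97 FPKM. Each group had libraries in both sets, and the log2 fold changes were -0.07 (SE 0.71), 0.58 (SE 0.62) and 0.52 (SE 0.71) for SF_ConD against SC_ConD and then for SF_HPD against SF_ConD and against SC_ConD. With 1 library left out, the value for SF_HPD against SF_ConD was 0.22 to 0.94. Pik3r2, which encodes the beta form of the subunit, was above Pik3r1 in those 9 libraries and below it in those 4.

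Akt2 (ENSMUSG00000004056, chromosome 7, 27591552 to 27640826, plus strand, GRCm38) encodes the AKT kinase most closely tied to glucose uptake. It was at 67.6, 59.5 and 42.5 FPKM in SC_ConD 1 to 3, at 34.3, 75.6, 52.3, 37.4 and 53.8 FPKM in SF_ConD 1 to 5, and at 68.3, 16.5, 58.9, 43.2 and 77.7 FPKM in SF_HPD 1 to 5. SF_HPD 2 lay below all other libraries. The 3 group means differed by less than any group's SD, at 56.5 ± 12.8 FPKM (SD, n = 3), 50.7 ± 16.4 FPKM (n = 5) and 52.9 ± 24.0 FPKM (n = 5). Log2 fold changes were -0.18 (SE 0.48), -0.05 (SE 0.42) and -0.24 (SE 0.48) in the same order of comparisons. Akt2 was the highest of the 3 AKT genes in 10 of 13 libraries, and Akt1 was highest in SF_ConD 1, SF_ConD 4 and SF_HPD 2.

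Tbc1d4 (ENSMUSG00000033083, chromosome 14, 101442360 to 101609191, minus strand, GRCm38) encodes the AKT substrate that holds GLUT4 vesicles inside the cell until it is phosphorylated. Its level was 5.97, 2.05 and 3.31 FPKM in SC_ConD 1 to 3, 7.68, 2.38, 5.64, 9.21 and 6.14 FPKM in SF_ConD 1 to 5, and 10.4, 1.28, 2.18, 10.6 and 9.66 FPKM in SF_HPD 1 to 5. Means were 3.78 ± 2.0 FPKM (SD, n = 3), 6.21 ± 2.56 FPKM (n = 5) and 6.83 ± 4.68 FPKM (n = 5), and the groups overlapped. The log2 fold change was 0.59 (SE 0.58) for SF_ConD against SC_ConD and -0.10 (SE 0.51) for SF_HPD against SF_ConD. In the 5 libraries with high B cell and lymph node markers, Tbc1d4 was at 6.14 to 10.6 FPKM, and in the other 8 it was at 1.28 to 10.4 FPKM. Without these 5 libraries, the log2 fold change for SF_HPD against SC_ConD went from 0.49 to -0.05. The part of lymphoid RNA in the level of Tbc1d4 was not tested.

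Slc2a4 (ENSMUSG00000018566, chromosome 11, 69942539 to 69948188, minus strand, GRCm38) encodes GLUT4, the insulin-responsive glucose transporter of fat and muscle. It was at 50.7, 16.7 and 12.0 FPKM in SC_ConD 1 to 3. In SF_ConD 1 to 5 it was at 14.1, 54.1, 29.9, 13.2 and 29.7 FPKM, and in SF_HPD 1 to 5 at 60.7, 3.45, 30.4, 83.2 and 35.4 FPKM. SF_HPD held both the highest and the lowest library of the study, SF_HPD 4 and SF_HPD 2. The group means were 26.5 ± 21.1 FPKM (SD, n = 3), 28.2 ± 16.6 FPKM (n = 5) and 42.6 ± 30.5 FPKM (n = 5), with log2 fold changes of 0.17 (SE 0.83), 0.25 (SE 0.72) and 0.42 (SE 0.83). SF_HPD 4 was the library with muscle markers at 22109 FPKM, and SF_HPD 2 the one with the lowest adipocyte markers. SC_ConD 3, with muscle markers at 3597 FPKM, had the lowest Slc2a4 of its group. Without SF_HPD 2 the log2 fold change was 0.94 against SF_ConD and 1.11 against SC_ConD, and without both SF_HPD 2 and SF_HPD 4 it was 0.68 and 0.86. Other alternatives turned the sign: against SF_ConD it was -1.01 without the 5 libraries rich in B cell markers and -0.51 without the 4 libraries of high length trend. Against SC_ConD it was -0.76 without SC_ConD 2 and 3. It was -0.15 both without the 5 libraries rich in B cell markers and with the replicate number as a block. Both settings leave SF_HPD 4 and 5 out of this comparison, and the value is the same with or without the block. The part of muscle RNA and of adipocyte content in these values was not tested.

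Slc2a1 (ENSMUSG00000028645, chromosome 4, 119108711 to 119137983, plus strand, GRCm38) encodes GLUT1, the transporter of basal glucose uptake in most cell types. It was at 6.04, 9.12 and 6.22 FPKM in SC_ConD 1 to 3, at 6.6, 3.50, 9.90, 9.03 and 6.05 FPKM in SF_ConD 1 to 5, and at 5.60, 7.15, 2.80, 6.38 and 3.68 FPKM in SF_HPD 1 to 5. The means of SC_ConD and SF_ConD were 7.13 ± 1.73 FPKM (SD, n = 3) and 7.01 ± 2.54 FPKM (n = 5), and that of SF_HPD was 5.12 ± 1.83 FPKM (n = 5). Slc2a1 had the smallest standard errors of the set, with a log2 fold change of -0.38 (SE 0.30, 95% interval -1.03 to 0.27) for SF_HPD against SF_ConD and -0.45 (SE 0.35, 95% interval -1.20 to 0.31) for SF_HPD against SC_ConD. Neither passed, at an unadjusted p of 0.232 and 0.225 and an adjusted p of 1.0 in each (limma, Benjamini-Hochberg). Both stayed negative under every alternative that was run, and neither passed at an adjusted p under 0.05 under any.

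The ratio of Slc2a4 to Slc2a1 within a library was 8.39, 1.84 and 1.92 in SC_ConD 1 to 3. It was 2.13, 15.5, 3.03, 1.47 and 4.91 in SF_ConD 1 to 5 and 10.8, 0.483, 10.9, 13 and 9.62 in SF_HPD 1 to 5. In 4 of 5 SF_HPD libraries the ratio was above 9, as it was in 1 of 5 SF_ConD libraries and none of the 3 of SC_ConD, while SF_HPD 2 had the only ratio below 1. The groups overlapped, and the ratio was chosen after the values were seen and has no test. Among other glucose transporters, the median was 7.10 FPKM for Slc2a8, 1.19 FPKM for Slc2a3 and 0.444 FPKM for Slc2a12. Slc2a4 was the highest of these 5 transporters in the 12 libraries other than SF_HPD 2.

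Foxo1 (ENSMUSG00000044167, chromosome 3, 52268336 to 52353221, plus strand, GRCm38) encodes a transcription factor that is active when insulin is low. It was at 8.59, 1.83 and 2.46 FPKM in SC_ConD 1 to 3, at 2.33, 3.18, 10.1, 4.94 and 6.44 FPKM in SF_ConD 1 to 5, and at 11.3, 0.880, 1.01, 8.70 and 2.51 FPKM in SF_HPD 1 to 5. The 4 libraries with a high length trend were again the highest, and the other 3 of SF_HPD were at or below 2.51 FPKM. Group means were 4.29 ± 3.74 FPKM (SD, n = 3), 5.40 ± 3.09 FPKM (n = 5) and 4.88 ± 4.81 FPKM (n = 5). The log2 fold change was 0.36 (SE 0.67) for SF_ConD against SC_ConD and -0.06 (SE 0.67) for SF_HPD against SC_ConD. For SF_HPD against SF_ConD it was -0.42 (SE 0.58). That value became -0.78 with the length trend as a covariate and -1.07 without the 4 libraries of high length trend. Unadjusted p-values were 0.0115 and 0.0154 and adjusted p-values 0.803 and 0.707 (limma, Benjamini-Hochberg). Leaving out 1 library at a time gave -0.80 to -0.12 for SF_HPD against SF_ConD. The lowest adjusted p under any alternative was 0.255 for SF_ConD against SC_ConD and 0.617 for SF_HPD against SF_ConD (limma, Benjamini-Hochberg). These 2 comparisons share SF_ConD, so their opposite signs are not separate observations. Foxo4 was the highest of the FOXO genes measured in all 13 libraries, with a median of 13.7 FPKM against 3.18 FPKM for Foxo1.

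Pck1 (ENSMUSG00000027513, chromosome 2, 173153048 to 173159273, plus strand, GRCm38) encodes cytosolic phosphoenolpyruvate carboxykinase, which insulin represses and fasting signals through cyclic AMP induce. Its promoter is shown because it had the widest range of the set. The 250 bases before the RefSeq start, at chr2:173152823-173153072 on the plus strand of GRCm38.p6, are printed 5′ to 3′. Their last bases lie inside the gene as the deposited table places it. Capitals mark matches on either strand to ACGTCA, the core of a CREB site, and to GGGCGG.
Pck1: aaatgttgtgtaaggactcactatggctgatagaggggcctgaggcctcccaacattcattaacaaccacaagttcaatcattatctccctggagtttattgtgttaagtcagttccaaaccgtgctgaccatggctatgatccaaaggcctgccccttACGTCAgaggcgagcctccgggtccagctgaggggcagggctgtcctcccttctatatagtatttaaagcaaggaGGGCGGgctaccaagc
ACGTCA begins at position -91 and GGGCGG at -16 from the start site, and ACGTCA was in 6.47% of all windows. The window held no match to GTAAACA, a FOXO core found in 3.17% of all windows, to the nuclear receptor half-site AGGTCA (14%) or to TATAAA (12.4%). None of the 12 windows used, which cover 8 of the 10 genes, held GTAAACA or AGGTCA.

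Pck1 was at 1561, 342 and 384 FPKM in SC_ConD 1 to 3. In SF_ConD 1 to 5 it was at 269.8, 886, 1100.1, 429.7 and 480.4 FPKM, and in SF_HPD 1 to 5 at 2163, 1.04, 437, 409 and 448 FPKM. SF_HPD 2 stood far below every other library, on 31 reads, while SF_HPD 3, 4 and 5 lay close together. Group means were 762 ± 692 FPKM (SD, n = 3), 633 ± 346 FPKM (n = 5) and 691 ± 843 FPKM (n = 5). The log2 fold change of SF_HPD was -1.45 (SE 1.45) against SF_ConD and -1.53 (SE 1.68) against SC_ConD, and without SF_HPD 2 it was 0.21 and 0.13. For SF_ConD against SC_ConD it was -0.08 (SE 1.68). The liver also expresses Pck1. Liver markers were highest in SC_ConD 2 and SC_ConD 3, where Pck1 was at 342 and 384 FPKM, and SC_ConD 1, at 1561 FPKM, had a high length trend (0.559). The part of liver RNA and of the length trend in Pck1 was not tested.

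SF_HPD 2 was the lowest of all 13 libraries for 6 of the 10 genes: Irs1, Akt2, Tbc1d4, Slc2a4, Foxo1 and Pck1. Of all genes tested, 17.2% were lowest there. Its adipocyte markers had a mean log2 level of 4.27, against at least 8.09 in every other library. Its markers of mammary and other epithelium summed to 7929 FPKM, against 2057 FPKM in SF_ConD 3. Their mean log2 level, 5.21, was below that of SF_ConD 3 (5.52). In SF_HPD 2, 4 of these 12 markers (Cldn3, Ltf, Wap and Csn2) were at 0, so the sum rests on part of the list. In FPKM, Slc2a1, at 7.15 FPKM, ranked 4 of 13 from the top in that library, and Pik3r1, at 7.97 FPKM, ranked 5. The divisor behind the FPKM was smallest relative to a library's reads in SF_HPD 2 (0.479 times), which raises levels there. These ranks therefore depend on the scaling. Pck1 to Slc2a4 was 0.302 in SF_HPD 2 and 4.92 to 36.7 elsewhere, so the pair did not drop in proportion. The part of adipocyte content in these levels was not tested.

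**Figure D3:**
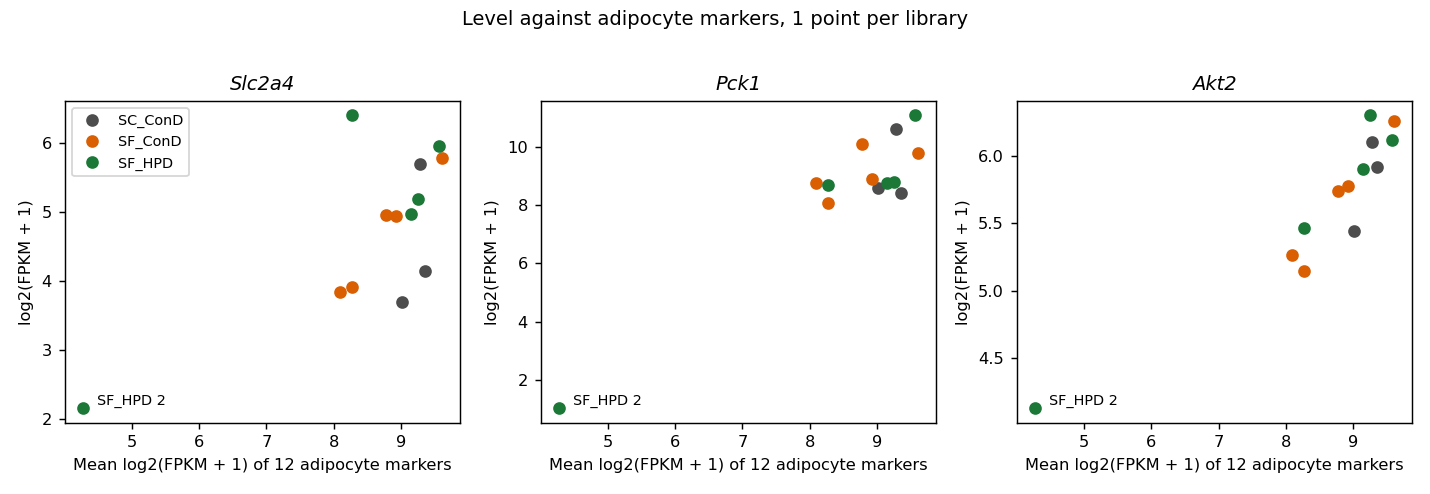
Levels of Slc2a4, Pck1 and Akt2 as log2(FPKM + 1) (vertical axes) against the mean log2(FPKM + 1) of 12 adipocyte markers (horizontal axes), 1 point per library, coloured by group. SF_HPD 2, at a marker mean of 4.27, is the lowest point in each panel; the highest Slc2a4 point is SF_HPD 4, the library with the most muscle transcripts.

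With the adipocyte marker mean as a covariate, Slc2a4 had a log2 fold change of 1.21 for SF_HPD against SC_ConD, at an unadjusted p of 0.0492 and an adjusted p of 0.975 (limma, Benjamini-Hochberg). With the length trend added as a second covariate it was 1.04, at an unadjusted p of 0.0178 and an adjusted p of 0.604. In SF_ConD against SC_ConD, Slc2a4 ran from -1.01 to 0.86 over all alternatives. Its lowest adjusted p there was 0.349 (limma, Benjamini-Hochberg), smaller than in SF_HPD against SC_ConD, so the comparison shown was not the one with the smallest p. With the adipocyte marker mean and the length trend as covariates, Pck1 had a log2 fold change of 0.89 for SF_ConD against SC_ConD. Its adjusted p, 0.214, was the smallest of any of the 10 genes under any alternative (limma, Benjamini-Hochberg). Without covariates this change was -0.08 (SE 1.68), and 12 of 25 alternatives had the opposite sign to it. For SF_HPD against SF_ConD the pair of covariates gave Pck1 -0.81, at an adjusted p of 0.614. The pair of covariates was chosen after the data were seen. The adipocyte marker mean was 4.27 in SF_HPD 2 and at least 8.09 in every other library, so its slope rests largely on SF_HPD 2. Leaving out SF_HPD 2, without covariates, gave 1.11 for Slc2a4 in SF_HPD against SC_ConD. SF_HPD 4, with muscle markers at 22109 FPKM and the highest Slc2a4, stayed in the fits with covariates. Over all 794 values of the 10 genes under all settings, 11 had an unadjusted p under 0.05 and 0 an adjusted p under 0.05.

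The levels of 5 of the 10 genes separated by length trend. For Insr, Irs1, Irs2, Pik3r1 and Foxo1, all 4 libraries with a trend above 0.3 lay above all 9 others. The ranges were 11.4 to 17.7 against 1.91 to 9.09 FPKM for Insr and 2.79 to 5.02 against 0 to 1.03 FPKM for Irs1. They were 10.9 to 26.6 against 1.70 to 7.12 FPKM for Irs2 and 8.59 to 11.3 against 0.880 to 6.44 FPKM for Foxo1. This separation was found in 13.5% of all genes tested, in 0.71% of genes shorter than 2000 bases, in 8.61% of those from 2000 bases to under 6000 bases, and in 37.1% of those of at least 6000 bases. All 5 of these genes are at least 6000 bases long, as listed in the table, from 6323 bases for Irs2 to 13746 bases for Insr, and they are 5 of 7 among the members of that length.

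The difference between the 4 libraries and the other 9 in mean log2(FPKM + 1) was 1.62 for Insr, 1.76 for Irs1, 1.75 for Irs2, 2.0 for Pik3r1 and 1.60 for Foxo1. The median over all genes of at least 6000 bases was 0.72, with quartiles of 0.21 and 1.14. Akt2 and Tbc1d4, at 7131 and 7676 bases, are as long but had differences of 0.28 and 0.81, and their libraries overlapped. Among the shorter members, Slc2a4 differed by 1.45, Pck1 by 2.21 and Slc2a1 by 0.23, also with overlap. The middle length class, which holds these 3, had a median of -0.06. The 4 libraries include 1 of SC_ConD, 1 of SF_ConD and 2 of SF_HPD, too few for a comparison within them, and their values outside them are those without the 4 libraries. The part of RNA or library quality in this trend was not tested.

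**Figure D4:**
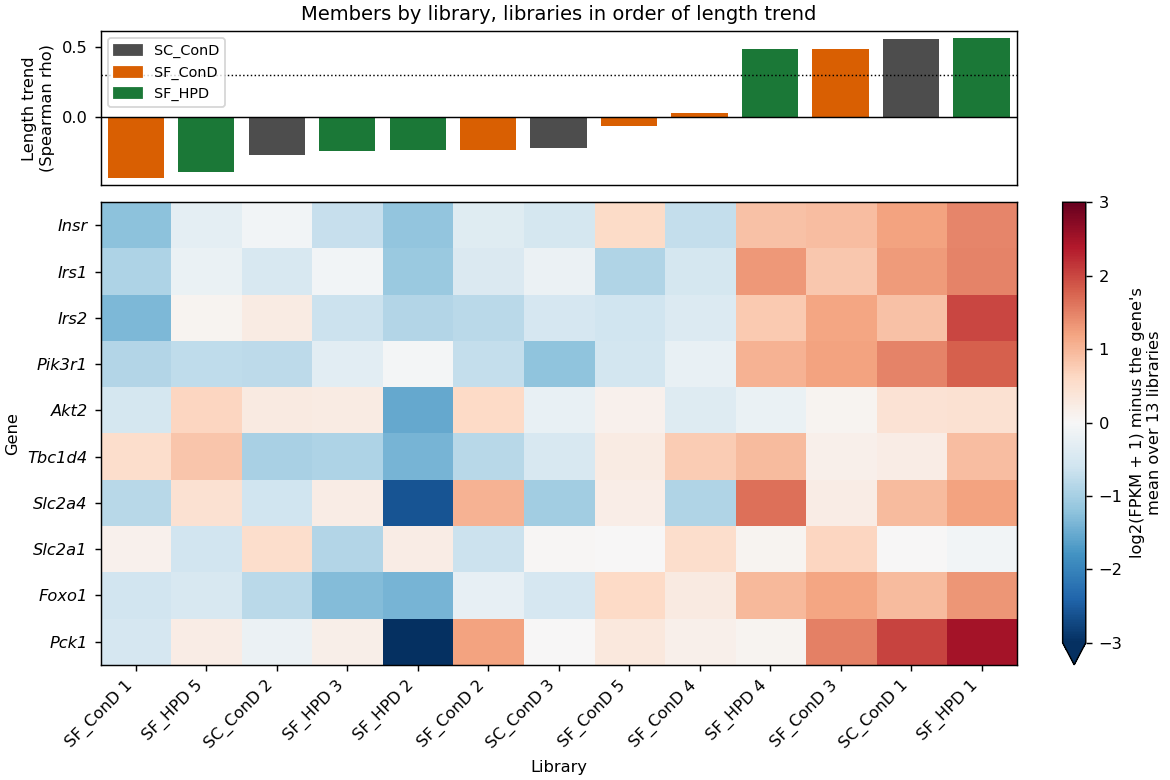
The upper panel gives the length trend of each library (Spearman rho, vertical axis; the dotted line is 0.3), coloured by group, and the lower panel each gene's log2(FPKM + 1) minus its mean over the 13 libraries, with libraries in order of length trend from left to right. The 4 libraries on the right, with trends of 0.484 to 0.563, are the highest for Insr, Irs1, Irs2, Pik3r1 and Foxo1, which is not so for Slc2a1 or Akt2; colours end at 3 below the mean.

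The genes most like each member over the 13 libraries were ranked among 12196 genes by Pearson correlation of log2 levels, as a description in which libraries share depth, length trend and tissue content. Pck1 was most like Lipe, which encodes hormone-sensitive lipase (r = 0.985), and Slc2a4 had Gpd1 (r = 0.951) and Gys1, glycogen synthase (r = 0.950), among its 3 nearest genes. Lipe and Gpd1 are also on the list of adipocyte markers. Akt2 was nearest to Grina (r = 0.965) and Acadm, a fatty acid oxidation enzyme (r = 0.953). Pik3r1 was nearest to Notch3 and Sipa1l2 (both r = 0.983), Insr to Celf2 (r = 0.976), Irs1 to Clec16a (r = 0.967), Irs2 to Atf2 (r = 0.976) and Foxo1 to Amigo1 (r = 0.970). Tbc1d4 was nearest to Ncoa7 (r = 0.924) with Il2ra, a receptor gene of lymphocytes (r = 0.913), among its 3 nearest genes. Slc2a1 had the loosest nearest gene, Sec23b (r = 0.880).

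The rest of the pathway was read from 6 lists of genes, and no gene of any list passed in any comparison. Receptor and docking genes, 12 of 13 kept, had 2 positive and 10 negative fold changes in SF_ConD against SC_ConD, with a median of -0.40, beside -0.03 for all genes. In SF_HPD against SF_ConD they had 9 positive and 3 negative, with a median of 0.28 beside 0.01, and in SF_HPD against SC_ConD 7 positive and 5 negative, with a median of 0.06 beside 0.02. The first 2 of these share SF_ConD, so their opposite shifts are not separate observations. Irs3, a docking protein gene of rodent fat, was at 22.4, 28.7 and 24.3 FPKM in SC_ConD 1 to 3 and at 9.86, 21.9, 11.1, 8.67 and 12.7 FPKM in SF_ConD 1 to 5. These groups did not overlap, as in 3.6% of all genes, and the log2 fold change was -0.98 (SE 0.81, adjusted p 1.0, limma, Benjamini-Hochberg). In SF_HPD Irs3 ranged from 0.198 FPKM in SF_HPD 2 to 27.8 FPKM in SF_HPD 3.

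Negative regulators of insulin signalling, all 19 kept, had medians of -0.25, -0.08 and -0.12 for SF_ConD against SC_ConD and then for SF_HPD against SF_ConD and against SC_ConD. Fkbp5, a glucocorticoid-induced chaperone gene, was at 6.22, 10.3, 10.8, 10.9 and 14.0 FPKM in SF_ConD 1 to 5 and at 12.1, 1.15, 2.86, 5.84 and 2.61 FPKM in SF_HPD 1 to 5. Only SF_HPD 1 reached the SF_ConD range, and the log2 fold change was -1.20 (SE 0.41) at an unadjusted p of 0.0115 and an adjusted p of 1.0 (limma, Benjamini-Hochberg). Trib3, an inhibitor of AKT, was at 5.07 ± 0.685 FPKM in SF_ConD (SD, n = 5) against 10.6 ± 3.68 FPKM in SC_ConD (SD, n = 3), without overlap and without passing the test. Socs3, a suppressor of receptor signalling, had a mean of 4.19 ± 2.03 FPKM in SF_HPD (SD, n = 5), beside 7.10 ± 2.51 FPKM in SF_ConD (n = 5) and 9.55 ± 4.06 FPKM in SC_ConD (n = 3), and did not pass.

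The 17 PI3K, PDK1 and AKT kinase genes had medians of -0.07, 0.20 and 0.09 in the same order. Pik3cd, the leukocyte form of the catalytic subunit, was at 10.1, 14.0 and 9.22 FPKM in SF_ConD 1, 4 and 5, the libraries with high B cell markers, and at 0.931 and 1.21 FPKM in SF_ConD 2 and 3. In SF_HPD 4 and 5, which also had high B cell markers, it was at 16.3 and 2.21 FPKM. The part of lymphoid RNA in Pik3cd was not tested. The 20 genes of GLUT4 vesicle trafficking had medians of 0.00, 0.13 and 0.10, with 14 positive and 6 negative in SF_HPD against SF_ConD, and the vesicle GTPase gene Rab10 had a mean of 38.5 ± 14.0 FPKM in SF_HPD (SD, n = 5) beside 28.7 ± 7.11 FPKM in SF_ConD (n = 5). Of 22 transporter and early glycolysis genes 17 were kept, with medians of -0.05, 0.08 and 0.07. The transporter gene Slc2a12 was at 0.371 ± 0.0968 FPKM in SF_ConD (SD, n = 5) against 0.939 ± 0.142 FPKM in SC_ConD (n = 3), without overlap and without passing. Pfkm, the muscle phosphofructokinase gene, was at 244 FPKM in SF_HPD 4, the library with the most muscle transcripts, and at 8.44 to 14.1 FPKM in the other 4 of SF_HPD.

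The FOXO factors and genes raised in fasting, 18 of 20 kept, had medians of -0.08, -0.25 and -0.31. Ccng2, a cyclin gene that FOXO factors activate, was at 12.6 ± 2.59 FPKM in SF_ConD (SD, n = 5) against 8.30 ± 0.895 FPKM in SC_ConD (n = 3), without overlap and without passing. The lowest fold changes were those of Fbp1, a gluconeogenic enzyme gene, and Igfbp1, both strongly expressed in liver. Fbp1 was at 1.26, 214 and 93.6 FPKM in SC_ConD 1 to 3 and at no more than 2.95 FPKM in SF_ConD. In SF_HPD it was at 14.9 FPKM in SF_HPD 2 and at most 0.715 FPKM in the other 4. Liver markers had their lowest sum in SF_HPD 2, at 272 FPKM, but their mean log2 level was lower in SF_ConD 5 (1.99, against 2.15 in SF_HPD 2). Igfbp1 was at 0.117, 179 and 101 FPKM in SC_ConD 1 to 3. SC_ConD 2 and SC_ConD 3, which hold these levels, were the libraries with liver markers at 24379 and 13623 FPKM, and the part of liver RNA was not tested. Neither gene passed, at adjusted p-values of 0.732 and 0.813 in SF_ConD against SC_ConD (limma, Benjamini-Hochberg). Fbp2, which encodes the muscle form of the enzyme, differed from the list's median in direction in SF_HPD against SF_ConD. It was at 1.21, 51.5, 1.26, 17.1 and 5.63 FPKM in SF_HPD 1 to 5 and at 0.225, 1.96, 0.427, 0.471 and 1.78 FPKM in SF_ConD 1 to 5. The log2 fold change was 2.11 (SE 0.77), at an unadjusted p of 0.0169 and an adjusted p of 1.0 (limma, Benjamini-Hochberg). The groups overlapped, and SF_HPD 2 and SF_HPD 4 were the highest.

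**Figure D5:**
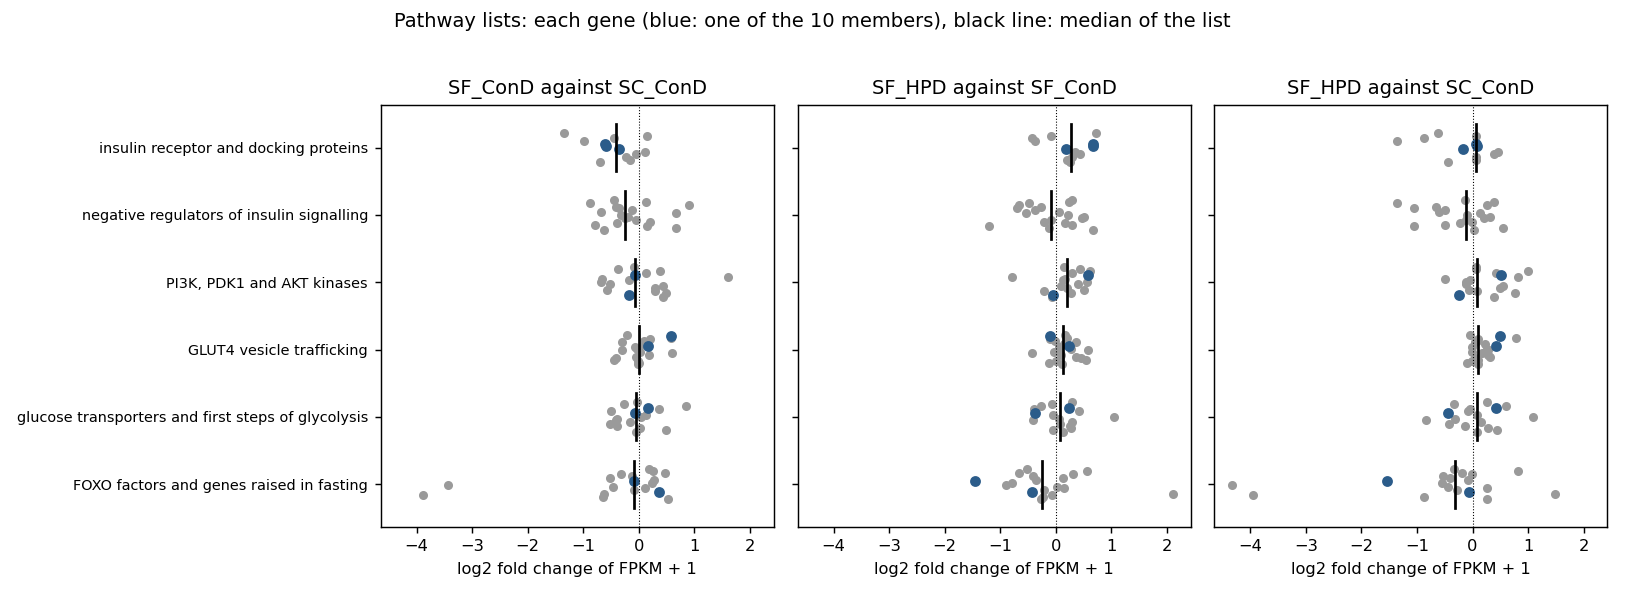
Fold changes on the log2(FPKM + 1) scale (horizontal axes) of the genes of 6 pathway lists (vertical axis) in each comparison; each point is a gene, blue for the 10 genes described here, and black lines are list medians. The points spread to both sides of 0 in every list; the receptor and docking list has its median at -0.40 in SF_ConD against SC_ConD and the points near -4 are Fbp1 and Igfbp1.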

How the data were processed

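RNA from the inguinal fat of 13 mice was measured by RNA-seq, and groups were taken from the labels. The deposited table holds the authors' FPKM per gene, with names, coordinates and lengths. CASAVA, HISAT2 2.0.5, featureCounts 1.5.0-p3 and the mouse build mm8 are named, without roles, per the submitters' processing notes. The table's coordinates are those of GRCm38: 54495 of 54532 gene identifiers were in the GENCODE annotation of that build and 53585 had the same start and end, as did all 10 genes described. The sources used here do not give the strand setting. Genes overlapping these 10 had at most 52 reads in any library.

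FPKM multiplied by gene length gave whole steps, and 100% of values were whole reads within 0.05 of a read. The divisor implied by the FPKM values was 0.479 to 1.23 times a library's own reads, so the authors' scaling moves levels between libraries. The sources used here do not say where this divisor comes from. FPKM sums differed 5.03-fold, a spread that depends on the divisor and also on the lengths of the genes that hold the reads.

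Levels were tested as log2(FPKM + 1), on which fold changes of low genes are understated. Limma 3.58.1 in R 4.3.3 fitted the 3 group means to all 13 libraries and 14421 genes, with the trend and robust options, two-sided, with Benjamini-Hochberg adjustment across the genes kept. The steps were run on simulated counts drawn from a common profile, without the differences in tissue content or length trend of these libraries. That run does not show how the test performs on data as variable as these. The 10 genes and all lists were chosen with earlier results of these data known. All 10 were named, and up to 2 other genes of each pathway list and comparison by smallest p. Genes whose groups did not overlap were also named, a choice made after the values were seen, except 1 gene that is not reported here.

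The covariate for length trend was the Spearman correlation of gene length with a library's level itself (-0.31 to 0.139), a different measure from the trend relative to each gene's mean that set the 4 libraries apart. Promoter windows and their bases are RefSeq's on GRCm38.p6, matched by symbol for 8 of 10 genes, with none for Insr and Slc2a4. No library pair differed as little as sampling noise (lowest chi-square per degree of freedom 71.0). Same-numbered libraries of SF_HPD and SC_ConD deviated together from their group means (correlations 0.711, 0.333 and 0.191). The labels give no source of a pairing, and the main fit was unpaired. For replicate 3, at 0.191, another number correlated more highly. The pair at 0.711, SF_HPD 1 and SC_ConD 1, both had a high length trend (0.563 and 0.559). Replicate numbers were used only as a block in 1 alternative. The replicate block changed no call.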

Additional observations from a re-analysis of the deposited data

Results flagged for a closer look

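In 20 groups of 5 libraries (10 genes in SF_ConD and in SF_HPD), the gap between an extreme library and its neighbour was compared with the whole range of the group, both in log2(FPKM + 1), at Dixon's critical value of 0.71. Chance alone marks about 1 in 20 such groups, and 2 were marked. Irs1 in SF_ConD had 1 high library, SF_ConD 3, at 2.79 FPKM against 0.130 to 0.593 FPKM in the other 4, a gap of 0.716 of the range. SF_ConD 3 is the SF_ConD library with the highest length trend, 0.485. Pck1 in SF_HPD had 1 low library, SF_HPD 2, at 1.04 FPKM against 409 to 2163 FPKM in the other 4, a gap of 0.761 of the range. SF_HPD 2 is the library with the lowest adipocyte markers.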

How the results depend on the processing

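No call of the 10 genes changed: 0 of 10 passed in each comparison under every alternative, and fold changes of 6 of the 30 gene-by-comparison results never changed sign. These are Irs1 and Irs2 in SF_ConD against SC_ConD, Pik3r1 and Foxo1 in SF_HPD against SF_ConD, and Slc2a1 in SF_HPD against both groups. Of 504 values of the 10 genes under alternatives other than leaving out 1 library, 74 had the opposite sign to the reported one. The log2 fold changes with an opposite sign follow, and the causes were not tested. Without the 5 libraries rich in lymphoid markers they were 0.082 for Insr, 0.41 for Pik3r1, 0.18 for Akt2 and 0.74 for Pck1 in SF_ConD against SC_ConD, and -0.42 for Insr, -0.094 for Irs1, -0.025 for Irs2 and -1.01 for Slc2a4 in SF_HPD against SF_ConD, and -0.11 for Irs1, -0.046 for Irs2, -0.051 for Tbc1d4 and -0.15 for Slc2a4 in SF_HPD against SC_ConD. With TPM they were 0.14 for Pik3r1, 0.055 for Akt2, 0.16 for Slc2a1 and 0.17 for Pck1 in SF_ConD against SC_ConD, and 0.099 for Insr, 0.024 for Akt2 and 0.18 for Foxo1 in SF_HPD against SC_ConD. With limma-voom on recovered reads they were 0.028 for Pik3r1, 0.0064 for Slc2a1 and 0.042 for Pck1 in SF_ConD against SC_ConD, and -0.48 for Irs1 in SF_HPD against SC_ConD. With the replicate block they were 0.038 for Pik3r1 and 0.12 for Pck1 in SF_ConD against SC_ConD, and -0.11 for Irs1, -0.046 for Irs2, -0.051 for Tbc1d4 and -0.15 for Slc2a4 in SF_HPD against SC_ConD. These values for SF_HPD against SC_ConD equal those without the 5 libraries rich in lymphoid markers, because both settings keep the same libraries of these groups. They are counted under both settings and are not separate observations. With the length trend as covariate they were 0.23 for Pik3r1 and 0.33 for Pck1 in SF_ConD against SC_ConD, and -0.15 for Insr and -0.061 for Slc2a4 in SF_HPD against SF_ConD, and -0.0045 for Irs1 and -0.012 for Irs2 in SF_HPD against SC_ConD. With both covariates they were 0.20 for Pik3r1, 0.021 for Akt2 and 0.89 for Pck1 in SF_ConD against SC_ConD, and -0.012 for Insr and 0.20 for Akt2 in SF_HPD against SF_ConD, and 0.22 for Akt2 and 0.072 for Pck1 in SF_HPD against SC_ConD. Without the 4 libraries of high length trend they were 0.41 for Pik3r1 and 0.38 for Pck1 in SF_ConD against SC_ConD, and -0.29 for Insr and -0.51 for Slc2a4 in SF_HPD against SF_ConD, and -0.13 for Irs1 and -0.35 for Irs2 in SF_HPD against SC_ConD. With quantile normalization they were 0.0062 for Akt2, 0.030 for Slc2a1 and 0.41 for Pck1 in SF_ConD against SC_ConD. With adipocyte markers as covariate they were 0.015 for Akt2 and 0.72 for Pck1 in SF_ConD against SC_ConD, and 0.21 for Akt2 and 0.069 for Tbc1d4 in SF_HPD against SF_ConD, and 0.20 for Insr, 0.22 for Akt2, 0.24 for Foxo1 and 0.31 for Pck1 in SF_HPD against SC_ConD. Without SC_ConD 2 and 3 they were -0.042 for Tbc1d4, -1.01 for Slc2a4, 0.12 for Slc2a1 and -0.71 for Foxo1 in SF_ConD against SC_ConD, and -1.0 for Irs1, -0.61 for Irs2, -1.15 for Pik3r1, -0.14 for Tbc1d4 and -0.76 for Slc2a4 in SF_HPD against SC_ConD. Without SF_HPD 2 and 4 they were 0.47 for Akt2, 0.10 for Tbc1d4 and 0.43 for Pck1 in SF_HPD against SF_ConD, and 0.29 for Akt2 and 0.35 for Pck1 in SF_HPD against SC_ConD. With a pseudocount of 0.1 they were -0.23 for Irs1 in SF_HPD against SC_ConD. Of 260 values with 1 library left out, 41 were of opposite sign. For SF_ConD against SC_ConD the ranges were Insr -0.73 to 0.15, Pik3r1 -0.59 to 0.76, Slc2a4 -0.24 to 0.76, Slc2a1 -0.19 to 0.13, Pck1 -0.47 to 0.62. For SF_HPD against SF_ConD the ranges were Insr -0.17 to 0.50, Akt2 -0.23 to 0.31, Tbc1d4 -0.35 to 0.27, Slc2a4 -0.12 to 0.94, Pck1 -2.30 to 0.21. For SF_HPD against SC_ConD the ranges were Insr -0.53 to 0.34, Irs1 -0.27 to 0.61, Irs2 -0.37 to 0.40, Pik3r1 -0.0047 to 1.35, Akt2 -0.43 to 0.13, Foxo1 -0.43 to 0.48, Pck1 -2.38 to 0.13. Over all genes, 0 were called in each comparison. Without SC_ConD 1 this became 194 in SF_ConD against SC_ConD and 196 in SF_HPD against SC_ConD, so leaving out 1 library gave ranges of 0 to 194 and 0 to 196. Without SF_HPD 5 it was 1 in SF_HPD against SF_ConD and 1 in SF_HPD against SC_ConD, a range of 0 to 1 for the former. Without the 4 libraries of high length trend, 162 and 172 genes were called in SF_ConD against SC_ConD and SF_HPD against SC_ConD. With the replicate number as a block, over libraries whose number both groups share, 0 genes were called in each comparison; only between SF_HPD and SC_ConD did every same-numbered pair correlate above 0.1. TPM moved the median log2 fold change of all genes to 0.15, 0.06 and 0.25, so changes under TPM are relative to these. A mean of at least 5 FPKM left out Irs1 and Foxo1, which then have no value. Leaving out the 4 libraries of high length trend and the pair of covariates were chosen after the data were seen. Irs1 had 0 to 980 reads per library, and the standard errors of Pck1, up to 1.68, limit what could be resolved for it.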
